A study of Mus musculus with 59 samples.

Results

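This report describes 42 genes that encode glutamate receptors and the postsynaptic proteins that hold them in place, taken by symbol from the 57180 gene rows of the count table. They comprised 4 AMPA receptor subunits, 5 kainate receptor subunits, 7 NMDA receptor subunits, 1 delta receptor subunit, 6 metabotropic receptors, 4 receptor auxiliary subunits, 2 subunits of the kinase CaMKII and 13 scaffold proteins. Poly(A) RNA of brain cortex and hippocampus was sequenced in 59 stranded libraries from 30 male mice. WT mice (Mrpl40 +/+,Slc25a1 +/+) gave 9 cortex and 8 hippocampus libraries. Slc25a1het mice (Mrpl40 +/+,Slc25a1 -/+), Mrpl40het mice (Mrpl40 -/+,Slc25a1 +/+) and doublehet mice (Mrpl40 -/+,Slc25a1 -/+) gave 7 libraries per tissue each, and 29 animals gave both tissues. Slc25a1 is the gene of the citrate carrier of mitochondria and Mrpl40 that of a mitochondrial ribosome protein, and both lie in a human microdeletion locus named in the series title. The labels give no age, strain or kind of mutation, and no Cre driver or treatment.

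Glutamate is the main excitatory transmitter of the brain. AMPA receptors carry most of the fast current, NMDA receptors admit calcium and set off plasticity, kainate receptors modulate release and excitability, and metabotropic receptors signal through G proteins. Beneath the membrane, membrane-associated guanylate kinases (Dlg), their partners (Dlgap), Shank and Homer proteins tie receptors to each other and to the cytoskeleton, and CaMKII, which calcium activates, phosphorylates receptors and scaffold.

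Library totals ranged from 21443017 to 32120906 counts, and levels below are CPM, counts scaled to the library total with 1 TMM scaling over all 59 libraries. All 42 genes passed the filter on low counts in each fit. The tissue labels were checked on marker lists: 8 hippocampal subfield markers summed to 204 to 360 CPM over the cortex libraries and 639 to 1211 CPM over the hippocampus libraries, and the neocortical layer markers to 611 to 854 CPM and 175 to 260 CPM. In WT mice 7 of the 8 subfield markers were called higher in hippocampus, and Wfs1 was not called (log2 fold change -0.39). Of 7 layer markers tested, 6 were called lower in hippocampus and Tle4 was called higher (log2 fold change 0.69). Slc25a1 had cortex medians of 24.0, 12.6, 22.4 and 11.6 CPM in WT, Slc25a1het, Mrpl40het and doublehet mice, and it went against the label in 6 animals (2 WT, 2 Slc25a1het and 2 doublehet). With these 6 animals included, Slc25a1 was not called in any genotype comparison. Its cortex log2 fold change was -0.53 in Slc25a1het and -0.61 in doublehet mice (edgeR adjusted p = 0.25 for the latter). Mrpl40 had medians of 17.2 to 17.8 CPM over the 4 cortex groups and was not called in any genotype comparison either, so Mrpl40 does not check the labels. The genotypes are therefore named as labelled, and each genotype comparison was also made without those 6 animals. In hippocampus 4 libraries stood apart. In the Slc25a1het library 3, 6 of 9 cerebellar granule and thalamic markers were the highest of all hippocampus libraries (sum 643 CPM, against 119 to 164 CPM in the others), and Gabra6, a marker of cerebellar granule cells, was at 66.2 CPM against 0 to 1.93 CPM. In the WT library 8 the hippocampal subfield sum was the lowest (639 CPM) and the neocortical layer sum the highest (260 CPM) of all hippocampus libraries. Of single markers, 3 of 8 subfield markers were the lowest there and 3 of 7 layer markers the highest. Some went the other way, among them Wfs1 (131 CPM, median of the others 73.9 CPM) and Lamp5 (34.3 CPM, median of the others 44.0 CPM). Its interneuron sum (810 CPM) and striatal sum (67.6 CPM) were the highest too. The Mrpl40het library 5 had the highest excitatory neuron sum (2482 CPM, others 1379 to 2375 CPM) and the lowest astrocyte sum (4628 CPM, others 5065 to 6914 CPM), and it was the highest of all hippocampus libraries in Grik4 (133 CPM) and Neto1 (250.1 CPM). It was the lowest in 5 of the 42 genes, Grik3, Grin2c, Grin3b, Grm2 and Grm8. The doublehet library 6 had the highest choroid plexus sum (94.1 CPM, others 19.3 to 73.9 CPM). Comparisons were repeated without the first, without the second and without all 4, and results that rest on the first or the second are given with and without that library. The Slc25a1het library 3 and the doublehet library 6 come from animals whose Slc25a1 level went against the label. Leaving out the 6 animals therefore drops these libraries too.

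In WT mice, 34 of the 42 genes differed between hippocampus and cortex, 16 higher and 18 lower in hippocampus (edgeR quasi-likelihood test, paired within animals, Benjamini-Hochberg adjusted over all 21354 genes tested, threshold 0.05). The background was high: 60.6% of all genes tested passed, 30.4% higher and 30.1% lower. The absolute log2 fold change had a median of 0.48 over the 42 genes and 0.27 over all genes. The WT groups did not overlap at all for 27 of the 42 genes (background 26.6% of genes), and the 30 cortex and 29 hippocampus libraries did not overlap for 19 (background 15%). Members of the same family moved in opposite directions: Gria1 and Gria2 were higher in hippocampus and Gria3 and Gria4 lower, Homer3 was higher and Homer1 lower, and of the auxiliary subunits Cnih2 and Neto1 were higher and Cacng2 and Neto2 lower. In these bulk samples, fewer cells of a type and less RNA per cell cannot be told apart.

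**Figure D1:**
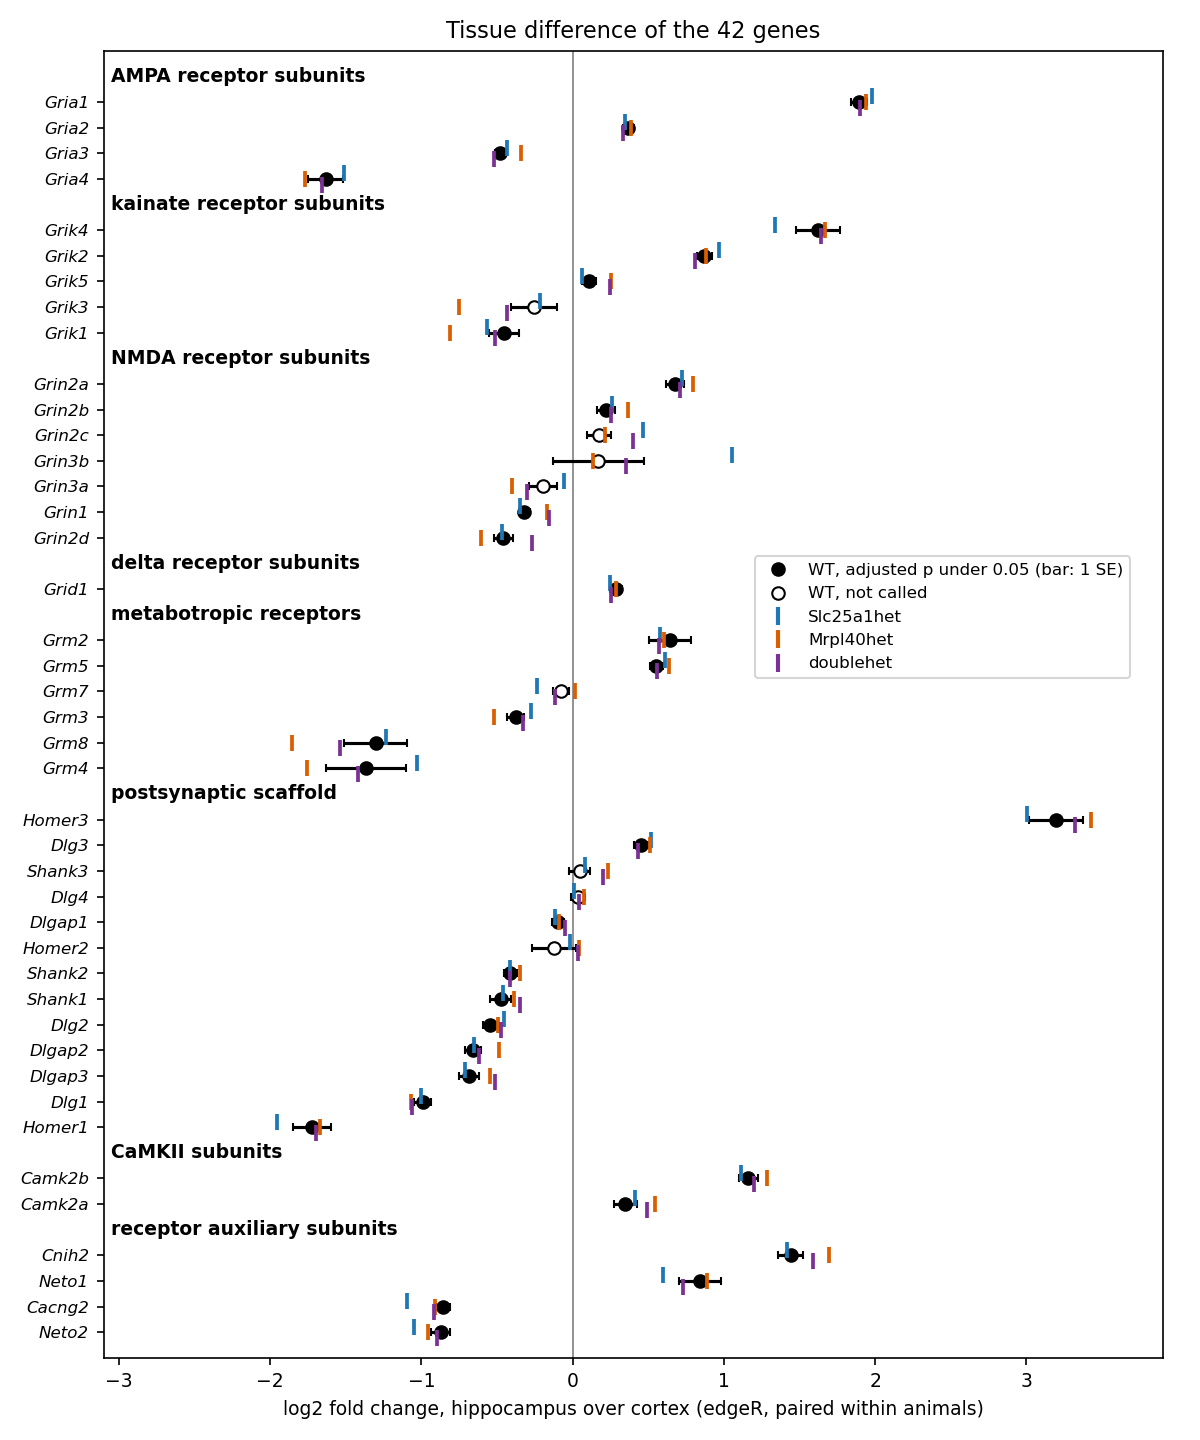
Log2 fold change of hippocampus over cortex for each of the 42 genes, grouped by family (x axis: log2 fold change from edgeR, paired within animals). Black points with bars of 1 SE are WT mice (filled: adjusted p under 0.05, 34 genes), and ticks are the other 3 genotypes. Homer3 (3.19), Gria1 (1.89), Homer1 (-1.72) and Gria4 (-1.63) lie farthest from 0, and the ticks lie near the WT points for most genes.

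The Homer scaffold held both the largest rise and the largest fall. Homer proteins link group I metabotropic receptors to Shank and to calcium stores. The 250 bases before the start sites of these 2 genes are printed here because the genes moved farthest in opposite directions (RefSeq, GRCm38.p6, both on the + strand, 5′ to 3′). Homer3 (ENSMUSG00000003573) starts after chr8:70282749-70282998 and Homer1 (ENSMUSG00000007617) after chr13:93303507-93303756. Capitals mark TGACG, the core of the cyclic AMP response element, which is bound by CREB-family factors.

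Homer3: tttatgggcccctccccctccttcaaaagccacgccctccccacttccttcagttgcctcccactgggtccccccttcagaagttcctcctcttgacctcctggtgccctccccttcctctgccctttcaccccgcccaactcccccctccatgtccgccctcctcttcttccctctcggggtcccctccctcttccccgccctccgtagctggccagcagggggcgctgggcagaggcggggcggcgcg

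Homer1: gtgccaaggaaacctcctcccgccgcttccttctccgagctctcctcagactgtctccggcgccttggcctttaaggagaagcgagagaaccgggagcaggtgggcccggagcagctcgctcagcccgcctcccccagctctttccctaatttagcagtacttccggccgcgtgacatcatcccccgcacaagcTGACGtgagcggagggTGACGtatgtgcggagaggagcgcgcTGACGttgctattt

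The Homer1 window holds 3 TGACG matches on either strand and the Homer3 window holds 0. This was the single motif searched, and it was chosen after the Homer1 sequence had been read. Of 32851 RefSeq promoter windows of this length, 17.8% held at least 1 match and 0.688% at least 3. Promoters were found for 28 of the 42 genes (43 starts), and 5 of those 43 windows (11.6%) held a match: Homer1, Grin1, Grm8, Dlg4 and Dlg3. A second annotated Homer1 start had none in its window. A match describes letters and is not a binding site.

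Homer1 was measured at 213 to 318 CPM in the 9 WT cortex libraries (median 276) and at 76.0 to 92.6 CPM in the 8 WT hippocampus libraries (median 82.0). The groups lay far apart, and hippocampus was lower in 29 of 29 animals. Homer1 was 3.30-fold lower in hippocampus (log2 fold change -1.72 ± 0.13 SE, edgeR adjusted p = 2.9e-12). Homer3 ran the other way, from 3.94 to 5.44 CPM in WT cortex (median 4.49) to 20.4 to 57.1 CPM in WT hippocampus (median 44.7). All 29 animals had more Homer3 in hippocampus, with a wide spread among hippocampus libraries, of which the WT library 8 was the lowest. The difference was 9.16-fold (log2 fold change 3.19 ± 0.18 SE, edgeR adjusted p = 1.3e-14), and it was 3.39 on the log2 scale without that library. Homer2, whose protein has the same coiled-coil build, was at a median of 73.7 CPM in WT cortex and 68.9 CPM in WT hippocampus and did not pass the test (log2 fold change -0.12 ± 0.15 SE, edgeR adjusted p = 0.49). Per kilobase of exon, Homer1 made up 76.2% ± 2.06 (SD, n = 9) of the family's summed level in WT cortex and 28.6% ± 5.59 (SD, n = 8) in WT hippocampus. Homer3 went from 4.27% ± 0.39 (SD, n = 9) to 48.9% ± 9.16 (SD, n = 8), so on this scale the highest Homer gene differed between the tissues. In CPM, Homer1 had the highest median of the family in both. The change of rank rests on the exon lengths used, which merge all exons of a gene. These were 11976 bases for Homer1, 12621 for Homer2 and 3440 for Homer3. Gene counts pool the long Homer1 forms with the short form that neuronal activity induces.

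Markers of neuronal activity were also lower in hippocampus, as were 30.1% of all genes tested. All 12 of 12 immediate early genes were lower in WT hippocampus than in cortex by the same test, and their summed level ran from 790 to 2973 CPM over the cortex libraries and from 214 to 468 CPM over the hippocampus libraries. Within a tissue, each gene was set against the immediate early sum on the log2 scale, centred by genotype, with two-sided permutation p-values (100000 draws) adjusted over all genes tested in that tissue. These correlations were added after the data had been seen. Homer1 did not pass in either tissue. Over the 30 cortex libraries it had r = 0.38 (permutation p = 0.039, adjusted 0.39) and Spearman's rho = 0.34 (permutation p = 0.064, adjusted 0.53), and r = 0.29 without the 2 libraries farthest from the median. Over the 29 hippocampus libraries it had r = 0.46 (permutation p = 0.012, adjusted 0.17) and rho = 0.44 (permutation p = 0.019, adjusted 0.31), and r = 0.54 without the 2 farthest. Within genotypes Homer1 had r of 0.61 (WT), 0.95 (Slc25a1het), 0.41 (Mrpl40het) and 0.0097 (doublehet) in cortex and of 0.43, 0.93, 0.24 and 0.43 in hippocampus.

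Of the 42 genes, 0 passed in cortex by Pearson's r (background 1.23% of genes) or by both measures (background 0.781%). In hippocampus 3 passed by Pearson's r (background 1.63%) and 0 by both measures (background 0.0645%). The 3 were Homer2 (r = 0.63, permutation p = 0.00023, adjusted 0.027), Grm7 (r = -0.63, permutation p = 0.00029, adjusted 0.032) and Grik4 (r = -0.61, permutation p = 0.00055, adjusted 0.042). Their rho was 0.53 (permutation p = 0.0034, adjusted 0.18), -0.49 (permutation p = 0.0080, adjusted 0.24) and -0.58 (permutation p = 0.0013, adjusted 0.13), so none held by rank. Without the 2 farthest libraries r was 0.63, -0.60 and -0.58. In the 8 WT libraries alone r was 0.18 for Homer2, 0.29 for Grm7 and -0.075 for Grik4, so Grm7 had the opposite sign there and the other 2 were weaker. Within Slc25a1het, Mrpl40het and doublehet libraries, Homer2 had r of 0.90, 0.64 and 0.72. In the same order r was -0.59, -0.74 and -0.80 for Grm7 and -0.70, -0.62 and -0.69 for Grik4. The part of hippocampal subfield content in these relations was not tested.

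Among AMPA receptor subunits, hippocampus had more Gria1 and Gria2 and less Gria3 and Gria4. Gria1 (GluA1, the subunit that activity adds to synapses) was at 319 to 408 CPM in WT cortex (median 365) and at 1052 to 1467 CPM in WT hippocampus (median 1393). Every hippocampus library lay above every cortex library, and the fold was 3.72 (log2 fold change 1.89 ± 0.050 SE, edgeR adjusted p = 1.2e-25). Gria2 (GluA2, which makes the channel impermeable to calcium) was at 766 to 853 CPM in WT cortex and 956 to 1137 CPM in WT hippocampus, again without overlap over all libraries (log2 fold change 0.37 ± 0.035 SE, edgeR adjusted p = 3.9e-11). Gria3 (GluA3) ran lower, 312 to 362 CPM in WT cortex and 225 to 254 CPM in WT hippocampus (log2 fold change -0.48 ± 0.034 SE, edgeR adjusted p = 3.1e-14). Gria4 (GluA4, common in interneurons) fell furthest, from 149 to 177 CPM (median 165) to 43.2 to 82.7 CPM (median 48.3), with the WT library 8 as the highest. Its fold was 3.10 (log2 fold change -1.63 ± 0.11 SE, edgeR adjusted p = 1.4e-12), and -1.74 on the log2 scale without that library. Per kilobase of exon, the summed AMPA subunit level was 172 ± 4.86 CPM (SD, n = 9) in WT cortex and 323 ± 22.3 CPM (SD, n = 8) in WT hippocampus. Gria1 made up 35.2% ± 2.23 (SD, n = 9) of it in cortex and 69.1% ± 2.41 (SD, n = 8) in hippocampus, Gria2 30.2% and 20.8%, Gria3 19.6% and 7.45%, and Gria4 15.1% and 2.67%. In the other 3 genotypes the Gria1 share was 34.1% to 35.8% in cortex and 69.2% to 70.0% in hippocampus.

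**Figure D2:**
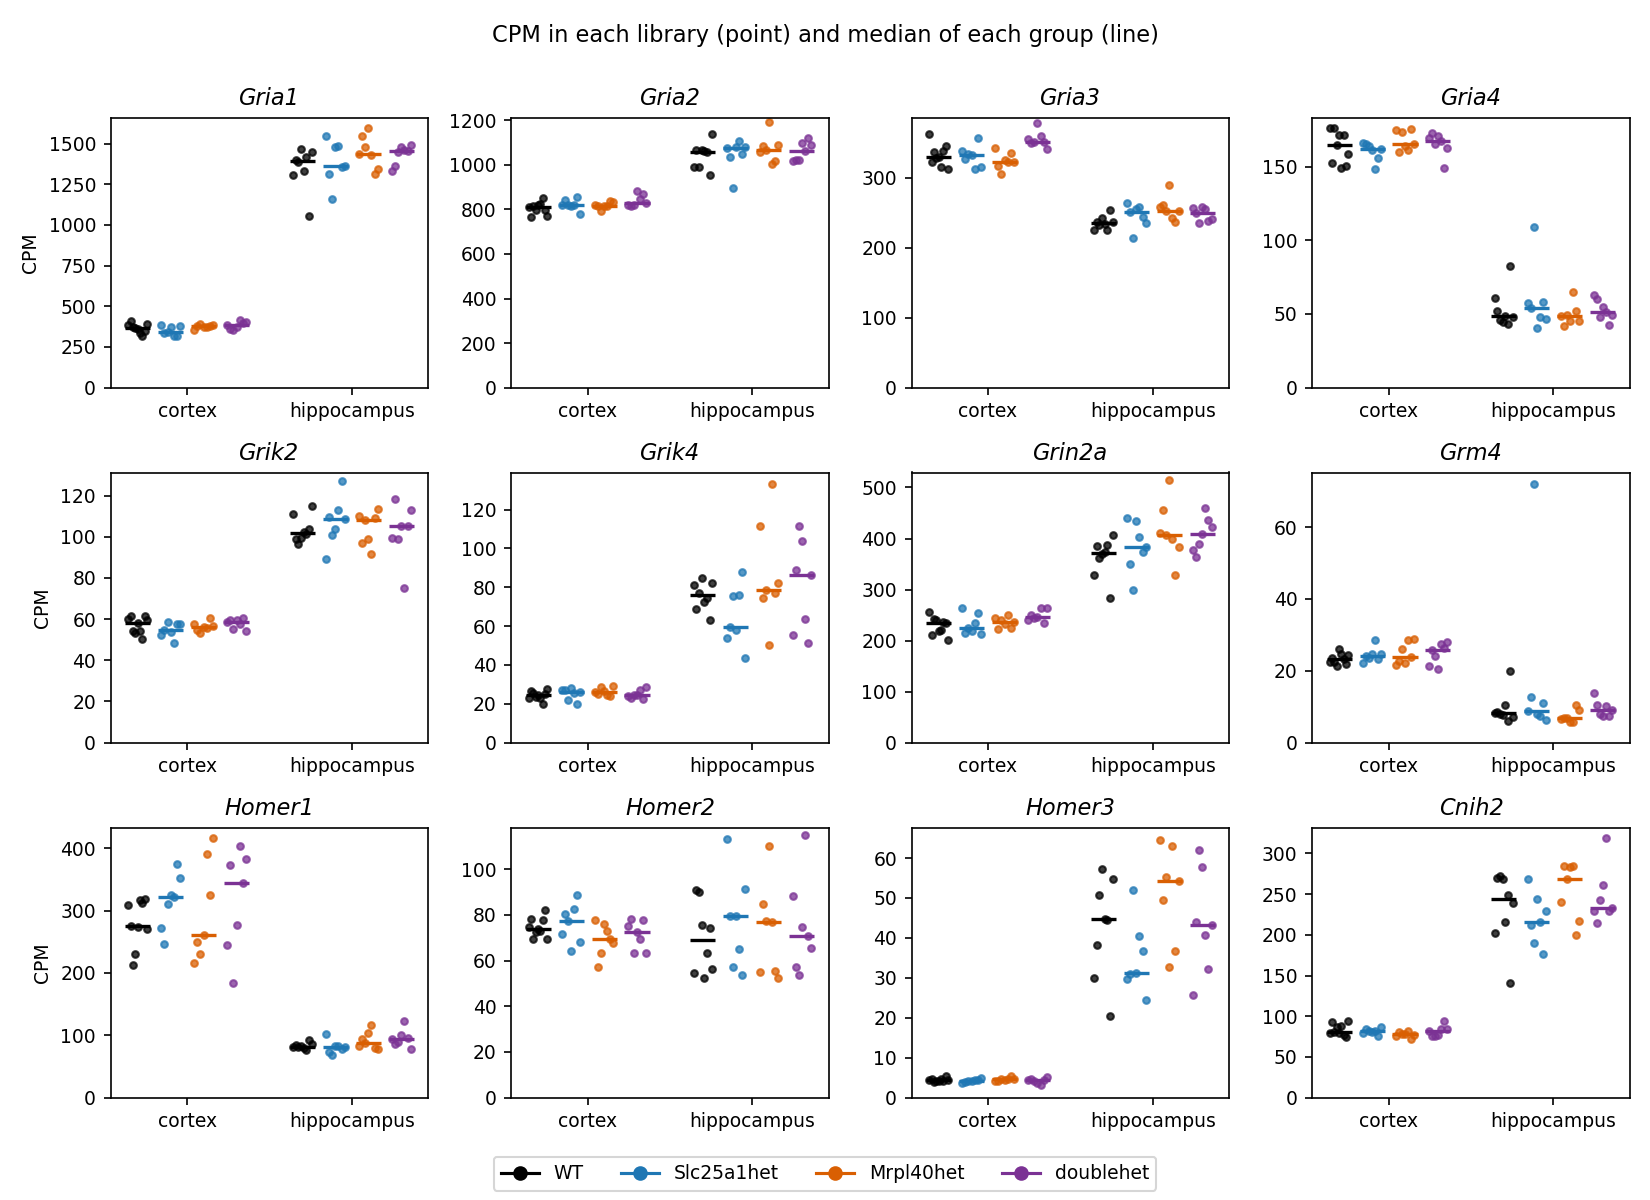
CPM (y axis, from 0) of 12 genes in each of the 59 libraries, by tissue and genotype; points are libraries and lines are group medians. Gria1, Gria2, Grik2, Grik4, Grin2a, Homer3 and Cnih2 lie higher in hippocampus, Gria3, Gria4 and Homer1 lower, and 1 Slc25a1het hippocampus library stands far above the others in Grm4 (71.9 CPM).

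The auxiliary subunits of AMPA and kainate receptors split as well. Cnih2, a cornichon that slows AMPA receptor gating and aids export, was at 74.9 to 94.6 CPM in WT cortex (median 80.2) and 140 to 272 CPM in WT hippocampus (median 244). No library overlapped, and the log2 fold change was 1.44 ± 0.082 (SE, edgeR adjusted p = 3.8e-15). Cacng2 (stargazin, the founding member of the transmembrane AMPA receptor regulatory proteins) was lower in hippocampus, at 91.8 to 114 CPM against 174 to 207 CPM (log2 fold change -0.86 ± 0.049 SE, edgeR adjusted p = 5.8e-17). Neto1 and Neto2 are CUB-domain partners of kainate receptors. Neto1 was at 75.5 to 90.9 CPM in WT cortex and 119 to 182 CPM in WT hippocampus (log2 fold change 0.84 ± 0.14 SE, edgeR adjusted p = 7.2e-06). Neto2 was at 60.9 to 77.3 CPM in WT cortex and 31.3 to 47.0 CPM in WT hippocampus (log2 fold change -0.87 ± 0.064 SE, edgeR adjusted p = 2.3e-13). Neto2 groups were separate over all libraries, and Neto1 groups over the WT libraries.

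Kainate receptor subunits showed 3 rises, 1 fall and 1 gene that was not called. Grik4 (GluK4, a high-affinity subunit) was at 20.1 to 27.7 CPM in WT cortex (median 24.3) and 63.3 to 84.5 CPM in WT hippocampus (median 75.8), a 3.08-fold difference (log2 fold change 1.62 ± 0.15 SE, edgeR adjusted p = 2.5e-10). Grik2 (GluK2, a pore-forming subunit) was at 50.5 to 61.7 CPM in WT cortex and 96.3 to 115 CPM in WT hippocampus (log2 fold change 0.87 ± 0.050 SE, edgeR adjusted p = 1.1e-16). Both were higher in hippocampus in 29 of 29 animals. Grik5 (GluK5) differed little, with a median of 220 CPM in WT cortex and 249 CPM in WT hippocampus and overlapping groups (log2 fold change 0.11 ± 0.045 SE, edgeR adjusted p = 0.036); its call was lost in WT animals alone. Grik1 (GluK1) was lower in hippocampus, with WT medians of 19.9 and 14.0 CPM and overlap only through the WT library 8 (log2 fold change -0.45 ± 0.10 SE, edgeR adjusted p = 0.00031). Grik3 (GluK3) did not pass in WT (log2 fold change -0.25 ± 0.15 SE, edgeR adjusted p = 0.15). Per kilobase of exon, Grik5 held 66.6% of the kainate level in WT cortex and 59.7% in WT hippocampus, and Grik4 6.33% and 16.2%.

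Of the 7 NMDA receptor subunits, 2 were higher in hippocampus, 2 were lower and 3 were not called. Grin1 (GluN1, required in every NMDA receptor) was at 394 to 440 CPM in WT cortex (median 402) and 296 to 357 CPM in WT hippocampus (median 323), lower in 29 of 29 animals (log2 fold change -0.32 ± 0.038 SE, edgeR adjusted p = 4.3e-09). Grin2a (GluN2A, the main partner in mature forebrain) was at 201 to 257 CPM in WT cortex (median 234) and 283 to 407 CPM in WT hippocampus (median 371; log2 fold change 0.68 ± 0.062 SE, edgeR adjusted p = 2.7e-11). Grin2b (GluN2B, which predominates early in life) was modestly higher in hippocampus, with WT medians of 450 and 532 CPM and overlapping groups (log2 fold change 0.22 ± 0.059 SE, edgeR adjusted p = 0.0016). Grin2d (GluN2D) was lower, with WT medians of 17.0 and 13.3 CPM (log2 fold change -0.46 ± 0.061 SE, edgeR adjusted p = 5.5e-08). Grin2c, Grin3a and Grin3b did not pass (log2 fold changes 0.18, -0.20 and 0.17). Grin3b was barely expressed, below 1 CPM in every library and down to 1 count. In Slc25a1het mice it was called higher in hippocampus (log2 fold change 1.05 ± 0.31 SE, edgeR adjusted p = 0.0041). The summed NMDA level per kilobase was 90.2 ± 2.82 CPM (SD, n = 9) in WT cortex and 92.3 ± 5.59 CPM (SD, n = 8) in WT hippocampus. Within it Grin1 went from 46.6% to 36.2% and Grin2a from 14.2% to 21.8%.

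Of the 6 metabotropic receptors, 2 were higher in hippocampus, 3 were lower and 1 was not called. Grm5 (mGluR5, the postsynaptic receptor that Homer binds) was at 157 to 183 CPM in WT cortex and 223 to 270 CPM in WT hippocampus (log2 fold change 0.55 ± 0.044 SE, edgeR adjusted p = 3.3e-13). Grm2 (mGluR2, an inhibitory presynaptic receptor) was at 58.7 to 75.8 CPM and 89.0 to 117 CPM (log2 fold change 0.64 ± 0.14 SE, edgeR adjusted p = 0.00026). Grm3 (mGluR3, also found in astrocytes) was lower in hippocampus, at 59.7 to 71.9 CPM in WT cortex and 44.8 to 54.7 CPM in WT hippocampus (log2 fold change -0.38 ± 0.054 SE, edgeR adjusted p = 3.1e-07). Grm4 and Grm8, group III presynaptic autoreceptors, were both low and lower still in hippocampus. Grm4 was at 21.4 to 26.0 CPM in WT cortex and 6.11 to 20.1 CPM in WT hippocampus (median 8.19; log2 fold change -1.36 ± 0.26 SE, edgeR adjusted p = 6.6e-05). Grm8 was at 10.5 to 13.7 CPM in WT cortex and 3.32 to 12.3 CPM in WT hippocampus (median 3.85; log2 fold change -1.30 ± 0.21 SE, edgeR adjusted p = 5.6e-06). The upper ends of both hippocampus ranges were the WT library 8, without which the log2 fold changes were -1.56 and -1.56. Grm7 (mGluR7) did not pass (log2 fold change -0.08 ± 0.052 SE, edgeR adjusted p = 0.20). Grid1, a delta subunit that organizes synapses through cerebellins, was slightly higher in hippocampus (WT medians 73.0 and 86.6 CPM, log2 fold change 0.28 ± 0.039 SE, edgeR adjusted p = 1.1e-07).

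The scaffold was mostly lower in hippocampus: of 13 genes, 8 were lower, 2 higher (Homer3 and Dlg3) and 3 not called. Dlg4, which encodes PSD-95, was not called, with WT medians of 849 and 874 CPM, 4 of 8 WT animals higher and 4 lower (log2 fold change 0.04 ± 0.048 SE, edgeR adjusted p = 0.51; 0.08 without the WT library 8). Its 3 paralogues were called. Dlg1 (SAP97) was at 221 to 264 CPM in WT cortex (median 240) and 101 to 166 CPM in WT hippocampus (median 116; log2 fold change -0.99 ± 0.054 SE, edgeR adjusted p = 4.5e-17). Dlg2 (PSD-93) was also lower (WT medians 402 and 276 CPM, log2 fold change -0.54 ± 0.044 SE, edgeR adjusted p = 7.0e-13). Dlg3 (SAP102) was higher (WT medians 209 and 292 CPM, log2 fold change 0.45 ± 0.046 SE, edgeR adjusted p = 1.4e-10). The summed Dlg level per kilobase was 148 ± 3.53 CPM (SD, n = 9) in WT cortex and 143 ± 7.71 CPM (SD, n = 8) in WT hippocampus.

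The Dlgap proteins bridge the Dlg and Shank layers. Dlgap3 was at 429 to 508 CPM in WT cortex (median 473) and 230 to 368 CPM in WT hippocampus (median 299; log2 fold change -0.69 ± 0.066 SE, edgeR adjusted p = 1.3e-10), and Dlgap2 had WT medians of 64.0 and 40.5 CPM (log2 fold change -0.66 ± 0.051 SE, edgeR adjusted p = 1.9e-13). Dlgap1 was nearly level (WT medians 752 and 710 CPM, log2 fold change -0.09 ± 0.040 SE, edgeR adjusted p = 0.041), a call lost without the WT library 8 (edgeR adjusted p = 0.19) and without the Slc25a1het library 3 (edgeR adjusted p = 0.053). The master scaffolds Shank1 and Shank2 were lower (WT medians 996 and 716 CPM, log2 fold change -0.47 ± 0.068 SE, edgeR adjusted p = 3.7e-07; 314 and 237 CPM, log2 fold change -0.41 ± 0.043 SE, edgeR adjusted p = 2.4e-10). Shank3 was not called (307 and 320 CPM, log2 fold change 0.05 ± 0.069 SE, edgeR adjusted p = 0.57; 0.12 without the WT library 8), although with offsets for gene length and GC content it passed as higher in hippocampus (log2 fold change 0.21, edgeR adjusted p = 0.0046).

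Both CaMKII subunits were higher in hippocampus. Camk2a was the most abundant of the 42 transcripts per kilobase in both tissues, and its WT medians were 4745 and 6362 CPM with overlapping groups (log2 fold change 0.35 ± 0.076 SE, edgeR adjusted p = 0.00017). Camk2b, the subunit that also bundles actin, was at 872 to 994 CPM in WT cortex (median 919) and 1368 to 2281 CPM in WT hippocampus (median 2204), with no overlap over all libraries (log2 fold change 1.16 ± 0.064 SE, edgeR adjusted p = 3.4e-17). Camk2b made up 13.5% ± 0.64 (SD, n = 9) of the level of the pair per kilobase in WT cortex and 21.5% ± 1.07 (SD, n = 8) in WT hippocampus. A wider list of glutamate postsynaptic genes was tested in the same fit. Of its 43 rows tested (42 symbols, Pick1 on 2 rows), 15 were higher and 23 lower in WT hippocampus, against 30.4% and 30.1% of all genes. The 3 largest rises were Shisa6, an AMPA receptor partner (log2 fold change 3.77), Nptx1, a pentraxin that clusters AMPA receptors (1.33), and Cacng5 (1.18). The 3 largest falls were Nptx2, an activity-regulated pentraxin (-2.78), Camk2n1, a CaMKII inhibitor (-1.78), and the kinase subunit Camk2d (-1.75). Chosen after their values had been seen, the second inhibitor Camk2n2 was also lower (-1.40), and the AMPA receptor regulatory proteins Cacng8 and Cacng3 moved apart (1.06 and -1.10). Interneuron markers differed between the tissues too, 7 of 8 lower in WT hippocampus, with sums of 1033 to 1291 CPM over the cortex libraries and 540 to 810 CPM over the hippocampus libraries. Their part in these tissue differences was not tested.

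The tissue pattern recurred in the other genotypes, which are separate animals. In hippocampus against cortex, 36 of the 42 genes were called in Slc25a1het mice (background 60.4%), 37 in Mrpl40het mice (background 60.3%) and 37 in doublehet mice (background 57.5%). The sign was the same as in WT for 42, 40 and 41 of the 42 genes, and the share of all genes for which this held was not computed. In all 4 genotypes 32 genes were called in the same direction, 15 higher and 17 lower (background 45% of all genes, 22.2% higher and 22.8% lower). Homer3 had log2 fold changes of 3.01, 3.43 and 3.32 and Gria1 of 1.98, 1.94 and 1.90 in Slc25a1het, Mrpl40het and doublehet mice. The 10 genes outside this set were Grik3, Dlgap1, Grik5, Grin2c, Dlg4, Shank3, Homer2, Grin3b, Grin3a and Grm7. The test of whether a tissue difference itself changed with genotype is given below.

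Against WT, none of the 42 genes was called in any genotype, in either tissue. In cortex, 0 of 42 passed in Slc25a1het mice (background 0% of 20394 genes tested), Mrpl40het mice (background 0.0294%) and doublehet mice (background 0.0686%), and 0 of 42 in the interaction of both alleles (background 0%). In hippocampus, 0 of 42 passed in Slc25a1het mice (background 0% of 20162 genes tested), Mrpl40het mice (background 0.00496%), doublehet mice (background 0.00992%) and the interaction (background 0%). DESeq2 also called 0 of 42 in each, and so did edgeR without the 6 animals whose Slc25a1 level went against the label. At an unadjusted p under 0.05 (edgeR) the cortex counts were 1, 3 and 9 for the 3 genotypes and 1 for the interaction, against 3.17%, 6.94%, 10.9% and 5.35% of all genes. The hippocampus counts were 5, 7, 3 and 2, against 7.77%, 8.19%, 5.28% and 3.39%. The comparisons of a tissue share their WT libraries and are not independent of each other.

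**Figure D3:**
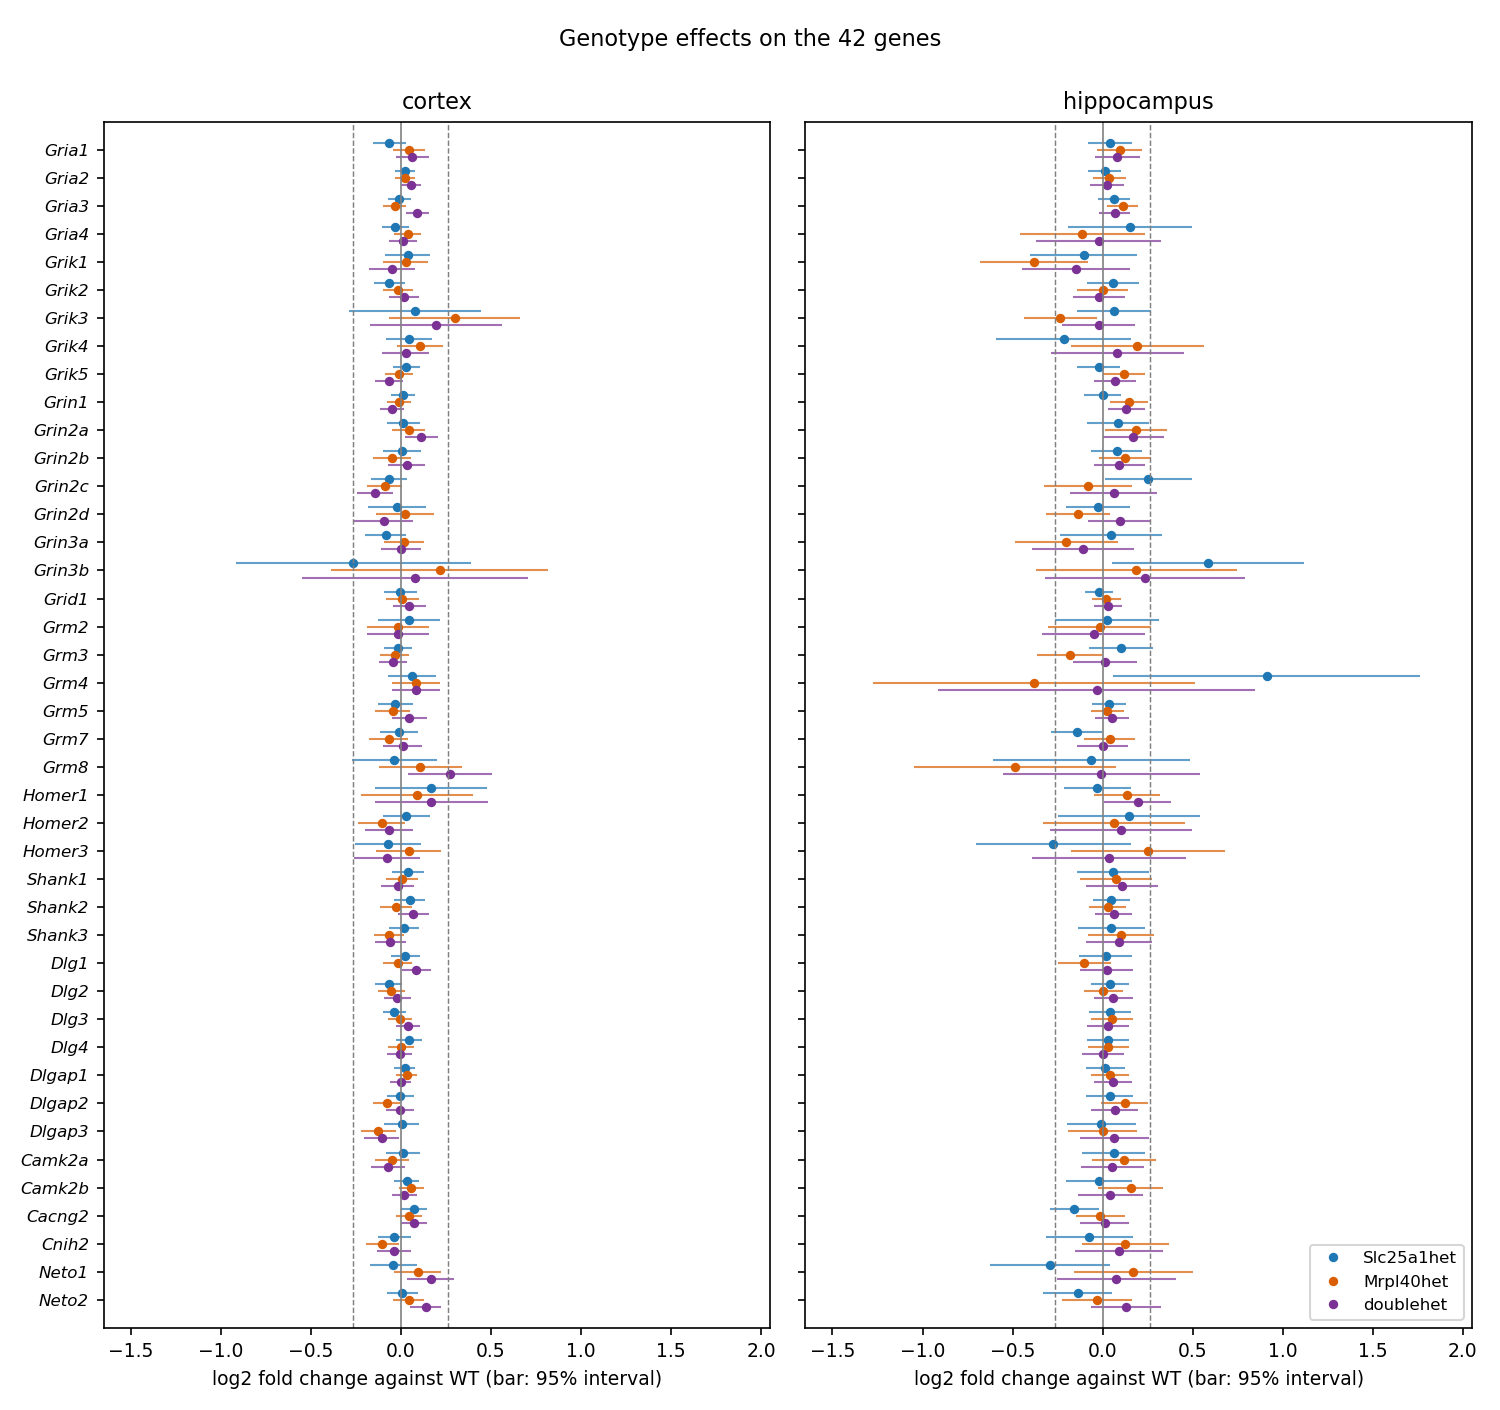
Log2 fold change against WT (x axis) with its 95% interval for each of the 42 genes in cortex (left) and hippocampus (right); colours are the 3 heterozygous genotypes and dashed lines mark 1.2-fold. Most cortex intervals lie within the dashed lines (38, 38 and 37 of 42), hippocampus intervals are wider, and Grm4 in Slc25a1het hippocampus lies farthest from 0 (0.91). Groups are as labelled, with all animals included.

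Intervals were narrower in cortex than in hippocampus. The 95% interval of the log2 fold change lay wholly within 1.2-fold for 38 genes in Slc25a1het cortex (background 57.9%), 38 in Mrpl40het cortex (background 55.9%) and 37 in doublehet cortex (background 54.9%). In hippocampus this held for 24 (background 49.9%), 19 (background 49.2%) and 23 genes (background 51.6%). Grin1 and Gria1, the core NMDA and AMPA subunits, are examples. In cortex, Grin1 had medians of 402, 405, 406 and 404 CPM in WT, Slc25a1het, Mrpl40het and doublehet mice, with log2 fold changes of 0.01, -0.01 and -0.05 (each ± 0.033 SE). Gria1 had cortex medians of 365, 344, 381 and 386 CPM, with log2 fold changes of -0.06, 0.05 and 0.06 (each ± 0.044 SE).

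The smallest p-values in doublehet cortex belonged to Neto2, Grin2c and Gria3. Neto2 was at 60.9 to 77.3 CPM in WT (median 68.7) and 71.9 to 85.3 CPM in doublehet cortex (median 75.2), with medians of 69.7 and 72.5 CPM in the single heterozygotes. The groups overlapped, and the log2 fold change was 0.14 ± 0.043 (SE, edgeR adjusted p = 0.20). Grin2c (GluN2C) ranged from 54.4 to 64.9 CPM in WT and from 47.2 to 58.1 CPM in doublehet cortex (log2 fold change -0.14 ± 0.049 SE, edgeR adjusted p = 0.25). Gria3 ranged from 312 to 362 CPM in WT and from 340 to 378 CPM in doublehet cortex (log2 fold change 0.09 ± 0.032 SE, edgeR adjusted p = 0.27). Gria3 also had the smallest p of the cortex interaction (0.13 ± 0.047 SE, edgeR adjusted p = 0.80) with medians of 332 and 322 CPM in the single heterozygotes and 329 CPM in WT. None of these differences passed. Next in the interaction were Dlg2 (0.10, edgeR adjusted p = 0.93) and Grm5 (0.12, edgeR adjusted p = 0.93). In Mrpl40het cortex the smallest p-values were those of Dlgap3 (-0.12 ± 0.049 SE, edgeR adjusted p = 0.62), Cnih2 (-0.10 ± 0.045 SE, edgeR adjusted p = 0.68) and Dlgap2 (-0.08 ± 0.037 SE, edgeR adjusted p = 0.71). In Slc25a1het cortex they were those of Cacng2 (0.07), Dlg2 (-0.07) and Grin3a (-0.09), with edgeR adjusted p = 1.0 for each.

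In hippocampus, Grin1 came closest in 2 genotypes. It was at 296 to 357 CPM in WT (median 323), 292 to 361 CPM in Slc25a1het (median 327), 317 to 389 CPM in Mrpl40het (median 377) and 323 to 391 CPM in doublehet mice (median 357). The ranges overlapped, with the Mrpl40het and doublehet medians above the highest WT library. The log2 fold changes were 0.15 ± 0.051 (SE, edgeR adjusted p = 0.59) in Mrpl40het and 0.13 ± 0.051 (SE, edgeR adjusted p = 0.91) in doublehet mice, and 0.0003 in Slc25a1het mice. Gria1 had log2 fold changes of 0.04, 0.09 and 0.08 (each ± 0.061 SE), and of -0.0042, 0.049 and 0.036 without the WT library 8. After Grin1, Mrpl40het hippocampus had its smallest p-values at Gria3 (0.11 ± 0.043 SE, edgeR adjusted p = 0.59) and Grik1 (-0.38 ± 0.15 SE, edgeR adjusted p = 0.59). Grik1 was at 12.1 to 22.8 CPM in WT and 9.34 to 15.6 CPM in Mrpl40het mice, and its log2 fold change was -0.27 without the WT library 8. In doublehet hippocampus they were at Homer1 (0.19 ± 0.090 SE, edgeR adjusted p = 0.92) and Grin2a (0.17 ± 0.083 SE, edgeR adjusted p = 0.94). The hippocampus interaction was led by Neto2 (0.30 ± 0.14 SE), Grin2d (0.26 ± 0.12 SE) and Cacng2 (0.18 ± 0.095 SE), with edgeR adjusted p = 1.0 for each.

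In Slc25a1het hippocampus the leading genes were Cacng2, Grin3b and Grm4. Cacng2 was at 91.8 to 114 CPM in WT and 77.1 to 107 CPM in Slc25a1het mice (log2 fold change -0.16 ± 0.066 SE, edgeR adjusted p = 0.60). Grin3b stayed below 1 CPM in each library (log2 fold change 0.58 ± 0.26 SE, edgeR adjusted p = 0.61). Grm4 had the largest estimate of any genotype comparison, 0.91 ± 0.42 (SE, edgeR adjusted p = 0.61), and it rested on 1 library. The Slc25a1het library 3 held 71.9 CPM of Grm4 against 5.85 to 20.1 CPM in the other 28 hippocampus libraries, and without it the log2 fold change was -0.09. The same library had the highest Grin2c (131 CPM, others 54.8 to 84.9 CPM) and Gria4 (109 CPM, others 40.4 to 82.7 CPM) and the highest cerebellar marker sum. It was also the lowest of all hippocampus libraries in 7 of the 42 genes, among them Gria2, Gria3, Homer1 and Dlgap1.

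**Figure D4:**
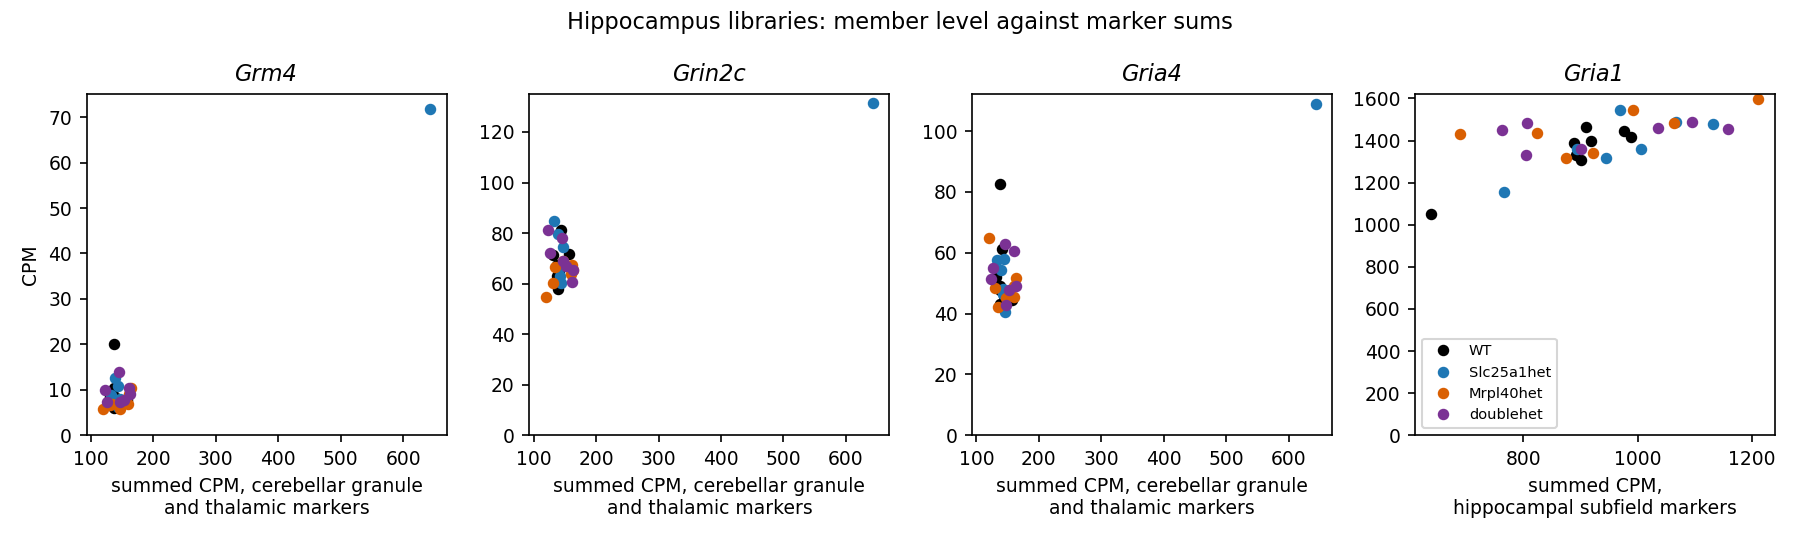
CPM (y axis) of Grm4, Grin2c and Gria4 against the summed CPM of cerebellar granule and thalamic markers, and of Gria1 against the summed CPM of hippocampal subfield markers, in the 29 hippocampus libraries. The Slc25a1het library 3 (marker sum 643 CPM) stands alone at the upper right in the first 3 panels, and the WT library 8 (subfield sum 639 CPM) is the lowest in Gria1 (1052 CPM).

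Whether a genotype effect differed between the tissues was tested within animals. None of the 42 genes passed for the Slc25a1het (background 0% of 21354 genes tested), Mrpl40het (background 0%) or doublehet effect (background 0.0234%). At an unadjusted p under 0.05 (edgeR) the counts were 3, 7 and 3, against 6%, 5.83% and 5.03% of all genes. The smallest p-values were those of Cacng2 for Slc25a1het (-0.24 ± 0.071 SE, edgeR adjusted p = 0.82), Grin1 for Mrpl40het (0.15 ± 0.055 SE, edgeR adjusted p = 0.83) and Grin1 for doublehet mice (0.16 ± 0.055 SE, edgeR adjusted p = 0.74). They were followed by Grin2c (0.29) and Grm7 (-0.16) for Slc25a1het, Gria3 (0.14) and Grik1 (-0.36) for Mrpl40het, and Grin2d (0.19) and Grik5 (0.14) for doublehet mice. The Grin2c estimate was 0.18 without the Slc25a1het library 3. Of the wider list of glutamate postsynaptic genes, 0 of 42 rows passed in each cortex comparison and 0 of 43 in each hippocampus comparison and tissue difference (edgeR).

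The genes differed widely in how much they varied between libraries of the same group. The spread is given as edgeR's biological coefficient of variation, the standard deviation between animals beyond counting noise as a percent of the level. Its median over the 42 genes was 6.38% in cortex (7.66% over all genes) and 12.0% in hippocampus (9.24% over all genes). The median over all genes was thus larger in hippocampus too. The spread was larger in hippocampus for 36 of the 42, and the share of all genes for which this held was not computed. In cortex the widest were Grin3b (27.7%), Grik3 (24.5%) and Homer1 (20.9%), and the narrowest were Gria2 (2.79%), Dlgap1 (3.21%) and Gria3 (3.88%). Homer1 ranged from 184 to 416 CPM over the cortex libraries, while Gria2 ranged from 766 to 880 CPM. In hippocampus the widest were Grm4 (53.7%), Grm8 (35.7%) and Homer3 (28.0%), and the narrowest were Grid1 (4.53%), Gria3 (5.33%) and Gria2 (5.43%). The hippocampus values include the 4 libraries that stood apart. Among these, the Slc25a1het library 3 was the highest of all hippocampus libraries in Grm4. The WT library 8 was the highest in Grm8 and the lowest in Homer3.

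**Figure D5:**
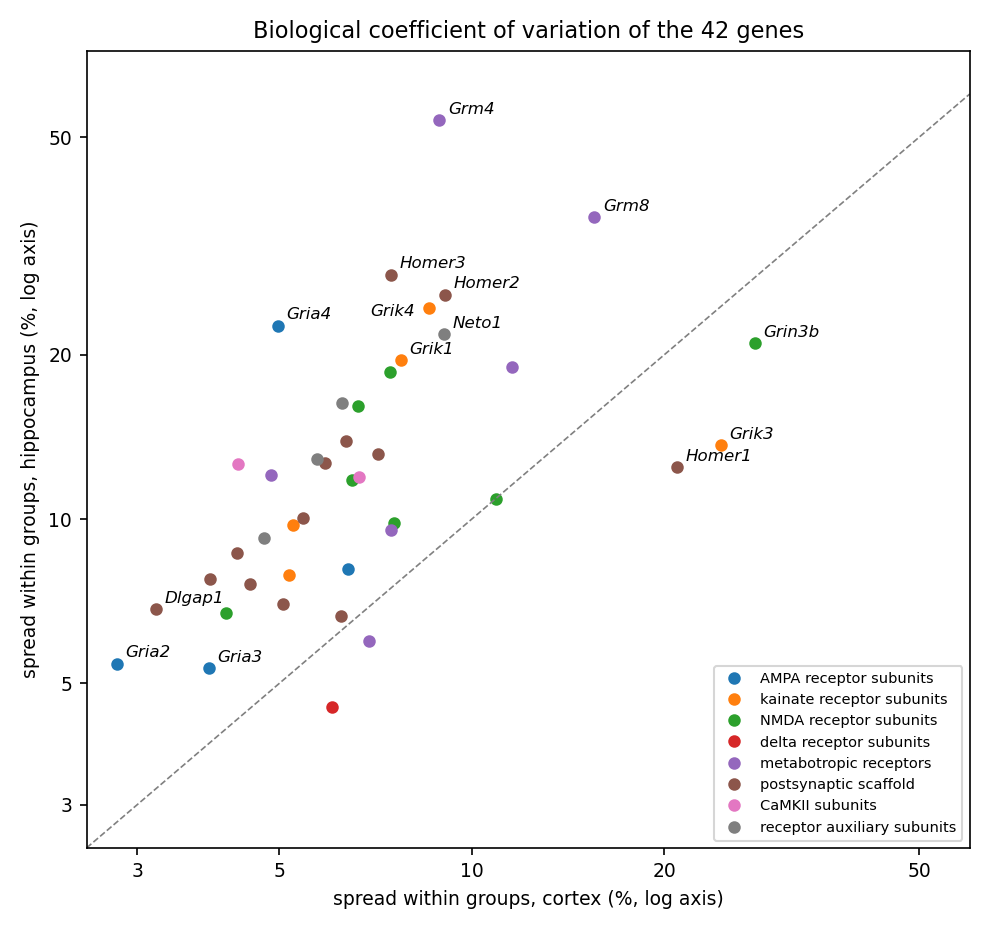
Biological coefficient of variation within groups in cortex (x axis, log scale) and hippocampus (y axis, log scale) for each of the 42 genes, coloured by family; the dashed line marks equal spread. Homer1, Grik3 and Grin3b lie below the line, 36 genes lie above it, and Grm4 is the highest (53.7% in hippocampus).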

How the data were processed

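Stranded poly(A) libraries of 59 tissue samples were sequenced as read pairs, per the labels' protocols. The authors deposited raw counts per gene, and the submitters' processing notes name FastQC, HISAT2, featureCounts, DESeq2 and the build GRCm39 (mm39), with no versions. The authors' second table, of normalized counts, is a signal unit: each deposited value is the raw count divided by 1 factor per library. Raw counts were tested with edgeR 4.0.16 (TMM scaling, filterByExpr, robust quasi-likelihood fit, R 4.3.3), with Benjamini-Hochberg adjustment over all genes tested and a threshold of 0.05. Each tissue was fitted with all 4 genotypes; the tissue comparison used the 29 animals with both tissues, with the animal as a block. This pairing comes from the animal numbers in the labels: the tissues of 1 animal deviated together weakly (median r = 0.11, from -0.029 to 0.41; -0.0099 for other pairs). Library totals were 21443017 to 32120906 counts, and 57180 gene rows were read, 44147 of them above 0. Libraries of a group come from different animals, per the labels.

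Levels per kilobase use exon lengths of GENCODE vM21 (GRCm38) matched by Ensembl ID (all 42 genes), since an annotation of the files' build was not used here. Promoter windows come from RefSeq (GRCm38.p6). Alternatives were no filter, DESeq2 1.42.0 (its size factors and its Wald test), limma 3.58.1 on the deposited normalized counts as log2(value + 1), length and GC offsets, a fold threshold of 1.2, blocks, fewer genotypes, and leaving out animals or libraries. Permutation tests of correlations used 100000 draws, with adjustment over all genes tested in a tissue except the immediate early genes. The fits were tested on simulated counts, for doublehet against WT in cortex and in hippocampus and for WT hippocampus against cortex. In that order, 55.2%, 49.3% and 47.8% of 1.2-fold changes were recovered, and 89.6%, 86.6% and 95.5% of 1.5-fold changes. False calls numbered 10, 8 and 3. Many 1.2-fold changes would thus be missed. The simulation changed 200 genes, all among the better counted ones, and held no animals against their label and no libraries apart. That is more changes than edgeR called in any genotype comparison, and more changes make the adjusted threshold easier to pass. Recovery in the genotype comparisons may therefore be lower than these shares. In the tissue comparison far more genes were called than the simulation changed.

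The 42 genes, the wider list and the 13 marker and gene lists were chosen with earlier results of these data known. Genes with full statistics were, for the tissue comparison, the 8 largest rises and falls, the largest change of each family and the 4 smallest changes; for each genotype comparison, the 3 smallest p-values; Grin1 and Gria1 throughout; the 3 widest and 3 narrowest spreads; and the 3 largest rises and falls of the wider list. Other members are described for completeness. The tissue effect in the heterozygous genotypes, the shares within families, the counts of intervals within 1.2-fold, the correlations with immediate early genes, the motif search and the leaving out of 3 sets of hippocampus libraries were added after the data had been seen.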

Additional observations from a re-analysis of the deposited data

Results flagged for a closer look

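In each of the 8 groups, the highest and the lowest library of each of the 42 genes were compared with the rest of their group by Dixon's gap ratio at the 95% level. Of 336 such gene and group pairs, 27 held a library apart from the others; chance alone flags about 1 in 20 groups. All values are CPM of 1 library.

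The WT hippocampus library 8 stood apart in 8 genes. It was the highest of its group in Gria4 (82.7 CPM, next 61.1 CPM), Grik1 (22.8 CPM, next 15.8 CPM), Grm4 (20.1 CPM, next 10.4 CPM), Grm8 (12.3 CPM, next 5.36 CPM) and Dlg1 (166 CPM, next 121.0 CPM). It was the lowest in Gria1 (1052 CPM, next 1308 CPM), Dlg3 (230.2 CPM, next 280.9 CPM) and Camk2b (1368 CPM, next 1905 CPM). For each of these genes the library lay on the side of the cortex level. Of all hippocampus libraries it had the highest neocortical layer sum (260 CPM, others 175 to 225 CPM), with 3 of 7 layer markers the highest. Its oligodendrocyte sum (4592 CPM, others 1947 to 4172 CPM), interneuron sum (810 CPM) and striatal sum (67.6 CPM) were the highest as well. The part of other tissue in these values was not tested.

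The Slc25a1het hippocampus library 3 was the highest of its group in Grm4 (71.9 CPM, next 12.6 CPM), Grin2c (131 CPM, next 84.9 CPM) and Gria4 (109 CPM, next 58.1 CPM), and the lowest in Gria2 (897 CPM, next 1034 CPM). Its cerebellar marker Cbln3 was at 186 CPM, against 0.215 to 3.46 CPM in the others; the part of cerebellar RNA in these values was not tested. The Slc25a1het hippocampus library 1 was the highest of its group in Homer1 (103 CPM), Dlg2 (329 CPM) and Dlgap3 (402 CPM). In Mrpl40het hippocampus, library 5 was the highest in Gria4 (64.8 CPM) and library 6 in Grin3a (35.7 CPM).

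In WT cortex, library 1 was the highest in Dlgap2 (74.6 CPM), library 2 the highest in Camk2b (994 CPM) and library 3 the lowest in Shank3 (267 CPM). Among Slc25a1het cortex libraries, library 1 was the highest in Grin3b (0.632 CPM), library 4 in Grik3 (159 CPM) and library 5 in Grm4 (28.4 CPM). The Mrpl40het cortex library 2 was the lowest in Shank1 (918 CPM) and Dlg3 (197 CPM). Among doublehet cortex libraries, library 6 was the lowest in Gria4 (149 CPM) and library 7 in Grm3 (60.1 CPM).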

How the results depend on the processing

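The number of the 42 genes called between WT hippocampus and cortex was 34, and 28 (a fold of at least 1.2) to 37 (length and GC offsets) under the alternatives; it was 34 with no replicate block (animals not paired) and 33 in WT animals alone. The genes called kept their direction in each alternative. Calls were lost for Dlgap1 (in 7 alternatives, among them no filter and without the 6 animals off their label), for Grik5 (limma, WT animals alone) and, at a fold of at least 1.2, for Camk2a, Grin1, Grin2b, Grid1, Dlgap1 and Grik5. In the genotype comparisons, interactions and tissue differences, 0 genes were called under each alternative, with the replicate block too. Over all genes, the calls in doublehet cortex ran from 0 (fold of at least 1.2) over 14 to 110 (DESeq2). Replicate numbers did not pair the genotypes: 7 of 28 cortex and 4 of 27 hippocampus libraries correlated best with their own number. Values with no call changed sign as follows, and the cause was not tested. The Dlg4 tissue difference was -0.0015 with length and GC offsets. Grm4 in Slc25a1het hippocampus was -0.13 without the 6 off-label animals and -0.094 without the Slc25a1het library 3. That library comes from 1 of the 6 animals, so both settings leave it out. Without the off-label animals, Grin1 in Slc25a1het cortex was -0.0022 and Gria1 in doublehet cortex -0.012. Grin1 in Slc25a1het hippocampus, 0.0003, was -0.0015 (DESeq2 size factors), -0.0024 (DESeq2), -0.0032 (limma), -0.019 (offsets), -0.0095 (replicate block), -0.0028 (only the genotypes compared), -0.017 (without the WT library 8; 0.0085 without the Slc25a1het library 3) and -0.0082 (without 4 hippocampus libraries). Gria1 there was -0.00092 with the replicate block and -0.0042 without the WT library 8 (0.077 without the Slc25a1het library 3). Without that library the Grin1 hippocampus interaction was 0.0019, and the Gria1 tissue differences of the Mrpl40het and doublehet effects were -0.011 and -0.038 (-0.029 without 4 libraries); without the Slc25a1het library 3 these 3 values were -0.024, 0.032 and 0.0042. The fewest counts were those of Grin3b, 1 in its lowest library.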
